A study of Homo sapiens with 18 samples.

Results

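The 42 genes described here encode nucleolar proteins that make and assemble ribosomes, together with the transcription factor MYC. They were chosen by name, by matching 42 gene symbols to the Ensembl identifiers of the count table. All 42 were found among the 63677 genes of the table, and all 42 passed the filter on low counts that left 15576 genes to test. By role, 5 act in transcription by RNA polymerase I, 4 in box C/D and 5 in box H/ACA RNA-protein complexes, 13 in the small subunit and 10 in the large subunit. The remaining members are 4 abundant nucleolar or regulatory proteins and MYC.

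The cells were NCI-H1299, an established human lung adenocarcinoma line, and the series asks which genes respond to each of 4 related T-box transcription factors. RNA was sequenced from 18 libraries, 3 in each of 6 groups, lettered a, b and c. TBX2 and TBX4 cells received plasmids for the Flag-tagged human proteins, TBX3 cells one for the HA-tagged human protein, and TBX5 cells one for HA-tagged mouse Tbx5. EV cells received an empty vector, the labels do not name the treatment of the Ctl cells, and EV and Ctl together formed the 6 controls. The study put TBX2 and TBX4 in a pORF vector and TBX3 and TBX5 in pCGN, and the sample titles do not name the EV vector. TBX2 or TBX4 against TBX3 or TBX5 thus also differs in vector. Overexpression was transient, and by the study's account only part of the cells were transfected, so values mix both kinds of cells.

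Ribosomes begin in the nucleolus, where RNA polymerase I copies the ribosomal DNA into a long precursor. Small nucleolar RNAs, held in box C/D and box H/ACA complexes, guide methylation and pseudouridylation of that precursor while processing factors trim it and load ribosomal proteins. MYC is known to raise transcription of many of these factors, and the pathway is a known target of oncogenic signals in lung and other cancers.

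The total count per library ran from 7365221 to 11743179. The lowest count of any member in any library was 44, for BOP1, and NPM1 had 7076 to 24820 counts. Values below are CPM, counts per 1000000 of a library total scaled by the trimmed mean of M-values (TMM). The TBX2 transcript averaged 4468 CPM in its own libraries (SD 368, n = 3) and 3.85 CPM (SD 0.58, n = 6) in controls. TBX4 had 94188, 109159 and 85197 counts in its libraries a, b and c and at most 1 in any control. The title of TBX4 c ends in TBX5, but that library held 85197 counts of TBX4 and 1 of TBX5, and it was kept with TBX4. Human TBX5 had 1161, 1163 and 1302 counts in the TBX5 libraries, where the plasmid carried the mouse sequence. TBX3 had 135416, 168437 and 320890 counts in its own libraries.

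Markers of the line were checked in all 18 libraries. VIM, of the mesenchymal cytoskeleton, had 861 to 970 CPM in the controls, 692 to 752 in TBX2 and 742 to 780 in TBX3. The epithelial keratins KRT8 and KRT18 had 33.3 to 40.9 and 61.2 to 75.8 CPM in the controls, 19.3 to 23.1 and 43.2 to 51.7 in TBX2 and 24.2 to 30.9 and 51.9 to 53.9 in TBX3. All 3 genes thus lay below every control in TBX2 and TBX3. In TBX4 VIM was also below every control (788 to 856), with KRT8 at 29.5 to 33.6 and KRT18 at 54.5 to 65.8, and in TBX5 VIM had 798 to 894, KRT8 39.7 to 52.7 and KRT18 61.7 to 72.9. The epithelial adhesion genes EPCAM and CDH1 had at most 3 and 2 counts, and the lung genes NKX2-1, NAPSA and SFTPB at most 4, 10 and 9. Of other cell types, the leukocyte genes PTPRC, CD3E, CD68 and LYZ had at most 4, 1, 4 and 9 counts, and no endothelial marker exceeded 7 (VWF) and no fibroblast marker 7 (DCN). Adhesion and lung markers were thus near 0 in these cells.

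The gene with most counts, to which the annotation gives no symbol, took a variable share of each library. Its share was 12.4% to 40.2% in the controls (median 33.6%) and 13.2%, 14.8% and 18.6% in TBX4 a, b and c. It was 19.6% to 40.5% in TBX2, 10.7% to 47.4% in TBX3 and 22.5% to 53.5% in TBX5. The TBX4 libraries were therefore all low, at or below 18.6%, where the only other libraries were EV c (12.4%) and TBX3 c (10.7%). An alternative chosen after seeing the data fitted this share as a covariate, and the calls it ended are named below. Because the share largely goes with the TBX4 group, that fit cannot well tell them apart. A TBX4 call that it ended is therefore not shown to come from the share.

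Levels in the controls, as CPM per kilobase of the canonical transcript, spanned a 226.6-fold range over the 41 members with such a length, with a median of 17.9. NPM1 (nucleophosmin, a histone and ribosomal protein chaperone) was far the highest at 1210.0 CPM per kilobase (SD 37.76, n = 6), 11.2-fold above NCL (nucleolin) at 108.4 (SD 12.3). NCL, NOP10 at 105.8 (SD 5.96) and FBL at 93.0 (SD 7.85) followed, and the levels of NCL and NOP10 lay within their spread. WDR12, of the large subunit pathway, was the lowest at 5.34 (SD 0.45), near RRP12 at 5.86 (SD 0.25). BOP1 has no canonical transcript in the annotation. These ranks depend on the length used: per kilobase of all exon bases, an alternative added after seeing the data, NPM1 had 192 (SD 5.998), 3.93-fold above FBL, the range was 63.6-fold, and the lowest member was RRP12 at 3.02 (SD 0.13).

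Promoters of 34 of the 42 members were in a RefSeq table (GRCh38.p14) of 300 bases each, 250 before the transcription start and 50 after it; MYC, BOP1, RRS1, TCOF1, NOP58, NOLC1, RRP12 and RRP1B were not. The letters CACGTG, the E-box that MYC is known to bind and the same on both strands, occurred in 14 of the 34 (41.2%) and in 1986 of all 27305 promoters (7.27%). In each of the 14 members an E-box began between -20 and 40 bases from the start, a stretch chosen after the positions were seen, where 424 of all promoters (1.55%) had one. The T-box motif GGTGTGA, or TCACACC on the other strand, occurred in 1 of the 34, MYBBP1A (2.94%), and in 927 of all promoters (3.39%). The 60 bases before the start are shown for NPM1, which has no CACGTG in its promoter and was lower in every TBX group, and for 4 members that differed from the controls and have the E-box there, NOP10 and NAT10 lower and UTP4 and UTP20 higher. Capitals mark the E-box, and the stretches are chr5:171387056-171387115 (plus strand), chr15:34343137-34343196 (minus), chr16:69132589-69132648 (plus), chr12:101280045-101280104 (plus) and chr11:34105569-34105628 (plus), in the order printed. NAT10 was chosen for this display after its values were seen.
NPM1: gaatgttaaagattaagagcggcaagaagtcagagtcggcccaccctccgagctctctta
NOP10: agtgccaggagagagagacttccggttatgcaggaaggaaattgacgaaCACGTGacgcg
UTP4: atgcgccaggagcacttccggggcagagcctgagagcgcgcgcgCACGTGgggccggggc
UTP20: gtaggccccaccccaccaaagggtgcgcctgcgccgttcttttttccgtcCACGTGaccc
NAT10: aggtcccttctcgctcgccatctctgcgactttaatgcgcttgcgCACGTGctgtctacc

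Of the 14 members with an E-box, 4 were lower in at least 1 TBX group, 4 were higher and 6 differed in none. Of the 20 without one, 8 were lower, 3 higher and 9 differed in none, where 44.3% of all tested genes were called in at least 1 group. A match to these letters is a description of the sequence, not a site of binding.

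Each TBX group was compared with the 6 controls by edgeR, and a gene was called lower or higher at an adjusted p under 0.1 over all 15576 genes. The 4 comparisons share the 6 controls, and their p-values measure only the spread between these libraries, which may be technical. In TBX2 cells 7 members were lower and 4 higher, where 15.6% of all tested genes were lower and 17.0% higher. In TBX3 cells 5 were lower and 4 higher, against 6.4% and 8.47% of all genes. In TBX4 cells 7 were lower and 3 higher, against 6.07% and 6.97%. In TBX5 cells 8 were lower and 2 higher, against 6.12% and 6.55%. Called members in either direction thus made up 26.2% in TBX2, 21.4% in TBX3, 23.8% in TBX4 and 23.8% in TBX5, where all tested genes had 32.6%, 14.9%, 13.0% and 12.7%. Each member had at least 44 counts in every library, while some tested genes had fewer than 10 in a library. Over the 11661 genes with at least 10 in every library, lower and higher calls numbered 2249 and 2365 in TBX2 and 1029 and 1375 in TBX3. They numbered 871 and 1006 in TBX4 and 910 and 1017 in TBX5, beside 7 and 5, 6 and 5, 7 and 3, and 8 and 2 members.

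**Figure D1:**
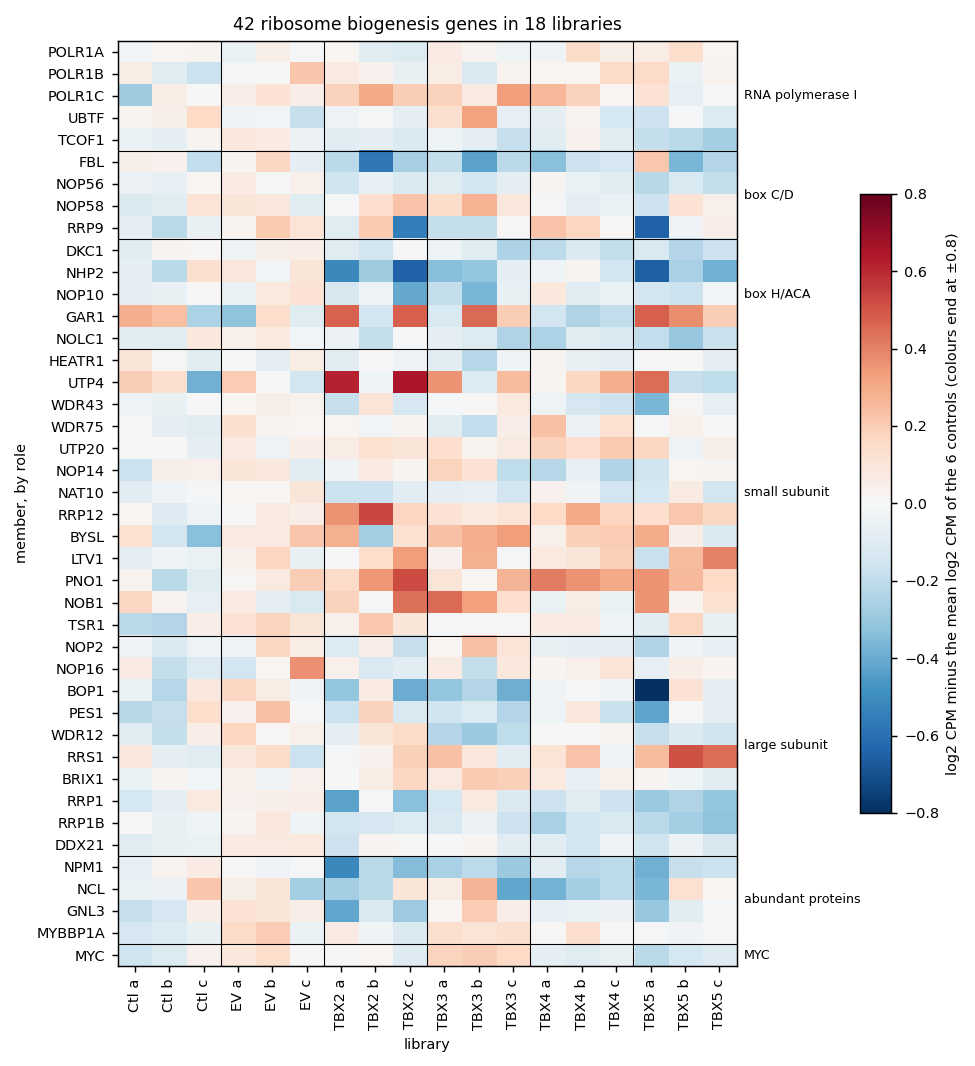
Each of the 42 members (vertical axis, by role) in each of the 18 libraries (horizontal axis), coloured by log2 CPM minus the mean log2 CPM of the 6 controls, with colours ending at ±0.8. NPM1 is below the control mean in all 12 TBX libraries, and most members differ little between the groups.

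The median log2 fold change of the 42 members was -0.04 in TBX2, -0.01 in TBX3, -0.04 in TBX4 and -0.08 in TBX5, while the median of all tested genes was 0.00, 0.00, -0.01 and 0.00. Negative values were found for 25, 22, 25 and 30 of the 42. Members whose 3 TBX libraries all lay below the 6 controls numbered 7 in TBX2, with 2 above, where 24.5% of all genes lay apart in either direction. The same counts were 4 below and 4 above in TBX3 (14.5% of all genes), 4 and 3 in TBX4 (12.6%) and 8 and 2 in TBX5 (14.0%). Over the 4 comparisons, 26 of the 42 members were called in at least 1 (61.9%, against 44.3% of all tested genes) and 16 in none. All tested genes include some with fewer counts than any member, and few counts make a call harder. Lower calls fell on 16 members and higher calls on 10, and none of the 26 was called in opposite directions. Most were called once: 16 members in 1 comparison, 7 in 2, FBL and PNO1 in 3, and NPM1 in 4.

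**Figure D2:**
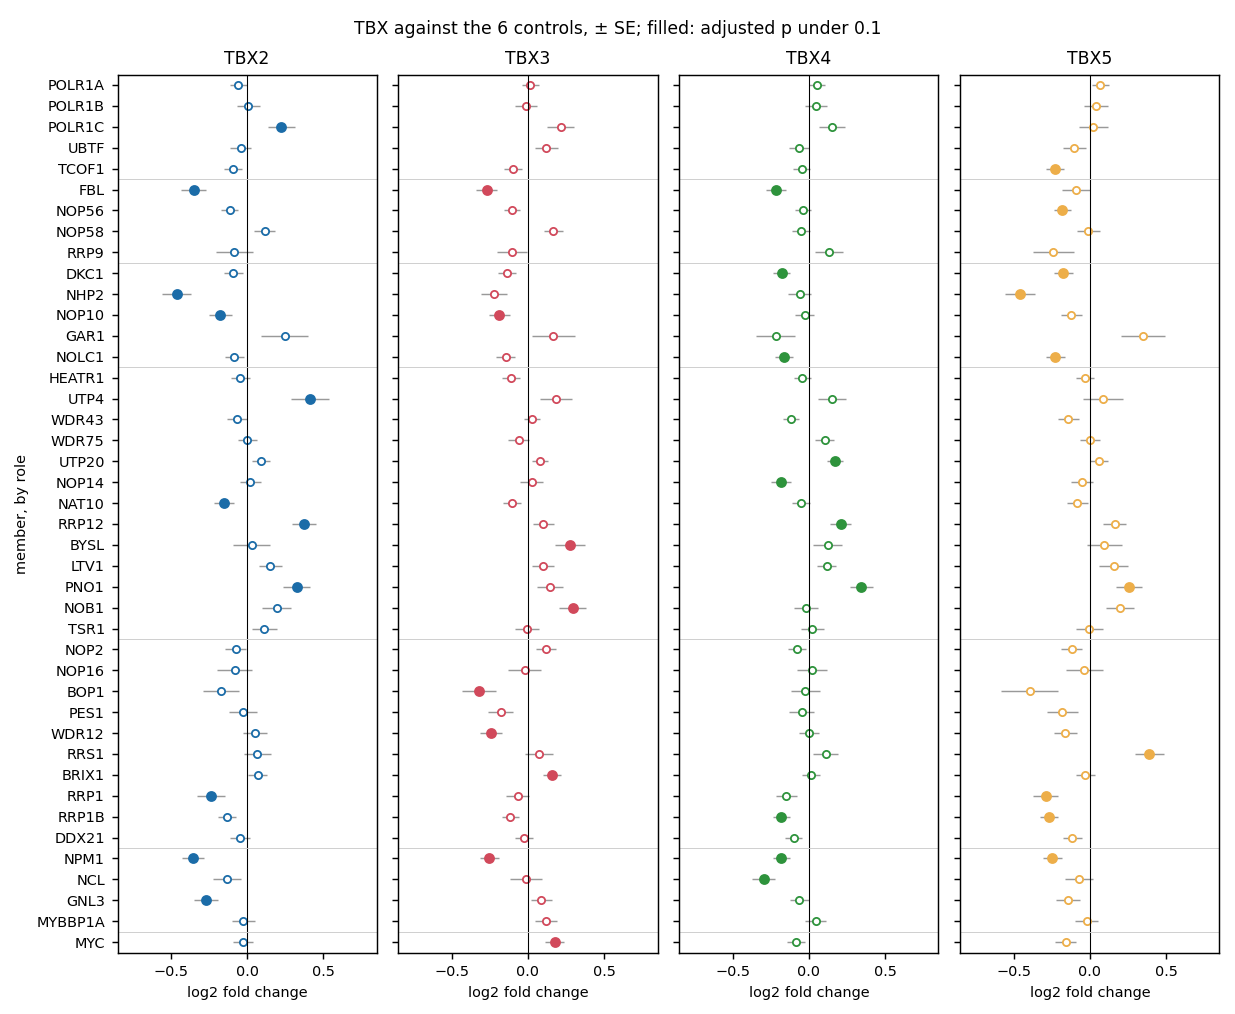
Log2 fold change (horizontal axis) of each member (vertical axis, by role) in the 4 TBX groups against the 6 controls, with its standard error as a bar and filled points for adjusted p under 0.1. Filled points on the left number 7, 5, 7 and 8 in TBX2, TBX3, TBX4 and TBX5, and those on the right 4, 4, 3 and 2.

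The counts depended on single libraries. Each such fit has 1 library fewer, and its calls over all genes are not given here. Whether the members moved more than other genes was thus not tested. Lower members in TBX2 numbered 3 without TBX2 a. In TBX3 the lower members numbered 8 without Ctl a or Ctl b, 3 without TBX3 a and 2 without TBX3 b. The higher members there numbered 2 without Ctl a, EV c or TBX3 c and 1 without Ctl b, TBX3 a or TBX3 b. Lower members in TBX4 numbered 2 without TBX4 a, 4 without TBX4 b and 3 without TBX4 c. In TBX5 they numbered 4 without TBX5 c, and the higher members numbered 1 without Ctl b, Ctl c, EV a or TBX5 b. Of the 40 calls, 11 were kept with each library left out in turn, and those are NPM1, FBL, NHP2, RRP12 and PNO1 in TBX2, NPM1 in TBX3, NCL and PNO1 in TBX4, and NHP2, RRP1B and RRS1 in TBX5.

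Scaling and the choice of controls also moved the counts. Scaled to library totals, no member was called by edgeR in TBX2, TBX3 or TBX5, and in TBX4 none was lower and 8 were higher, while the median of all genes was 0.25 in TBX4 and -0.31 in TBX5. Of all genes, 223 were lower and 833 higher in TBX2 and 0 and 35 in TBX3. In TBX4 33 were lower and 2756 higher, and in TBX5 55 and 38. The member median minus that of all genes was -0.04 in TBX4 and -0.07 in TBX5 under both TMM and library totals. The members thus moved with all genes between these scalings, and which scaling gives the true sign was not tested. With totals that omit the most counted gene, lower and higher members numbered 7 and 3 in TBX2, 12 and 1 in TBX3, 7 and 1 in TBX4 and 9 and 1 in TBX5. All genes had 2548 and 2377, 1709 and 867, 1242 and 895, and 1212 and 795 there, so in TBX3 they moved the same way, from 997 lower and 1319 higher. Against the Ctl controls alone they numbered 3 and 5, 2 and 3, 2 and 3, and 3 and 2 in the same order, and against the EV controls alone 7 and 3, 8 and 1, 7 and 1, and 9 and 2. All genes had 1854 and 2165, 662 and 1000, 845 and 967, and 518 and 674 against Ctl alone, and 1898 and 2255, 869 and 1028, 693 and 751, and 686 and 711 against EV alone. The member median was above 0 in TBX2, TBX3 and TBX4 against Ctl alone (0.03, 0.05 and 0.01) and below 0 against EV alone (-0.09, -0.05 and -0.08). In TBX5 the member median was -0.04 against Ctl alone and -0.12 against EV alone. With that gene's share as a covariate, none of the 10 calls in TBX4 was kept, and all genes called there fell from 945 lower and 1086 higher to 335 and 465. The share largely goes with the TBX4 group, so these losses do not decide between the share and the group. The TBX4 values with it were -0.21 for DKC1, -0.16 for FBL, -0.07 for NCL, -0.12 for NOLC1, -0.13 for NOP14, -0.18 for NPM1, 0.21 for PNO1, 0.18 for RRP12, -0.15 for RRP1B and 0.13 for UTP20. The same covariate kept all 11 calls in TBX2, all 9 in TBX3 and all 10 but that of DKC1 (-0.16) in TBX5.

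Further alternatives ended calls of named members. When the replicate block (libraries of 1 letter) was fitted, calls of NAT10 and NOP10 in TBX2, NPM1, NOLC1 and NOP14 in TBX4 and DKC1 in TBX5 were lost, and so were GAR1 in TBX2 against TBX4, RRS1 in TBX3 against TBX5 and, of other genes, MGA and RPAP3 in TBX2. With totals that omit the most counted gene, those of NOP10 and POLR1C in TBX2, BRIX1, BYSL and MYC in TBX3, RRP12 and UTP20 in TBX4 and PNO1 in TBX5 were lost, with MYC in TBX2 against TBX3, NOB1 in TBX3 against TBX4 and NOP2 in TBX3 against TBX5, and of other genes LSG1 and TAF1D in TBX3 and TTF1 and UTP15 in TBX5. Without a filter on low counts, those of POLR1C in TBX2, BRIX1 and MYC in TBX3, DKC1, NOLC1, NOP14 and RRP12 in TBX4 and PNO1 in TBX5 were lost. That choice also ended RRP12 in TBX2 against TBX3, RRS1 in TBX2 and TBX3 against TBX5, NOB1 and WDR12 in TBX3 against TBX4, and of other genes LSG1 and TAF1D in TBX3, POLR3D in TBX2 and NVL, TTF1 and UTP15 in TBX5. In 1 fit of all 18 libraries, those of BOP1 and NOP10 in TBX3 and FBL, NCL, NOLC1, NOP14 and NPM1 in TBX4 were lost.

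**Figure D3:**
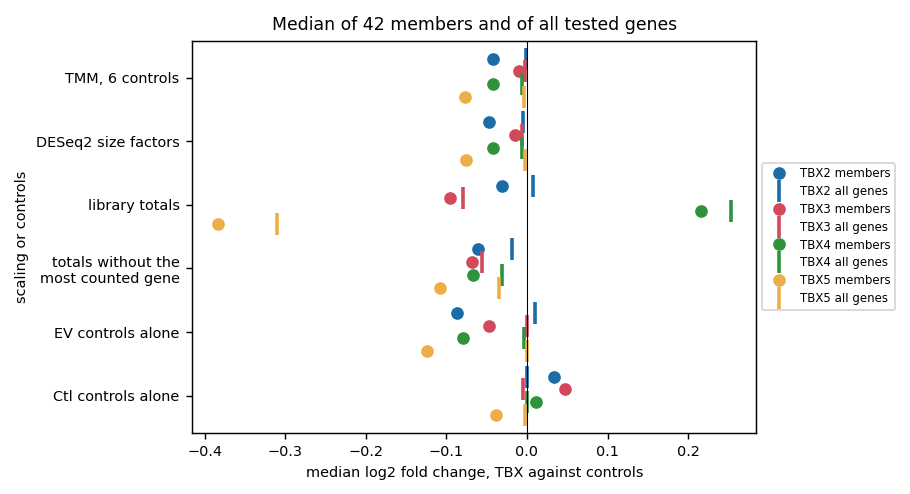
Median log2 fold change against the controls (horizontal axis) of the 42 members (points) and of all tested genes (ticks) in the 4 TBX groups, for 6 choices of scaling or controls (vertical axis). Library totals move members and all genes together, to 0.22 and 0.25 in TBX4 and to -0.38 and -0.31 in TBX5.

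Among the abundant proteins, NPM1 was lower in all 4 TBX groups. The gene (ENSG00000181163) lies at chr5:170814120-170838814 on GRCh37. Its values were 1529, 1596 and 1673 CPM in the controls (lowest, median, highest). They were 1119, 1374 and 1255 CPM in TBX2 a, b and c and 1334, 1383 and 1301 in TBX3. In TBX4 they were 1500.2, 1363 and 1379 CPM, and in TBX5 1224, 1404 and 1419. Every TBX library was thus below every control, with TBX4 a closest to them.

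The log2 fold change of NPM1 was -0.35 ± 0.07 (SE) in TBX2 (adjusted p = 0.000863) and -0.25 ± 0.06 in TBX3 (adjusted p = 0.0102). It was -0.18 ± 0.06 in TBX4 (adjusted p = 0.0529) and -0.25 ± 0.06 in TBX5 (adjusted p = 0.0194). The TBX4 call was lost without TBX4 b (-0.15) or TBX4 c (-0.16), against EV alone, with the replicate block, in 1 fit of all libraries and with the covariate (-0.18). The TBX5 call was lost without TBX5 a (-0.18). DESeq2 called NPM1 lower in all 4 groups. Among all tested genes 193 were lower in all 4 groups and 189 higher. The study's list of genes common to the TBX groups holds NPM1 and was drawn from these same samples, so it is not independent of these values. The annotation holds 49 numbered NPM1 pseudogenes with which reads could be shared. In bulk RNA, fewer cells of a type and less RNA per cell cannot be told apart.

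**Figure D4:**
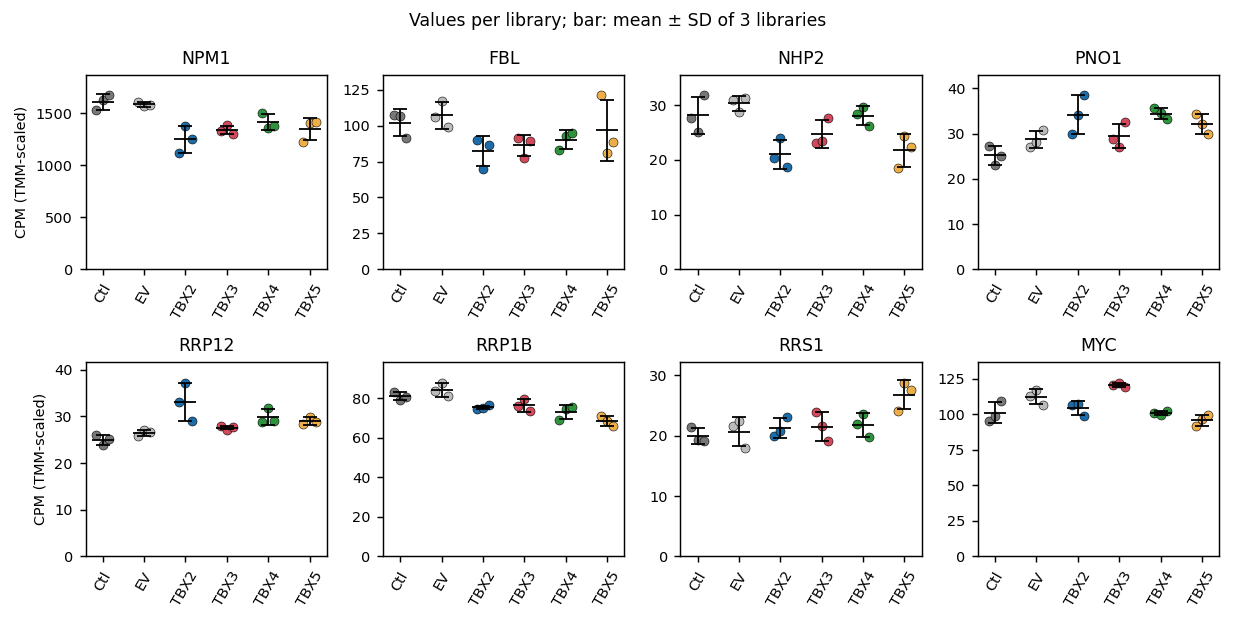
CPM (vertical axes, from 0) of 8 members in each library, by group (horizontal axes); points are libraries and bars the mean ± SD of 3. NPM1 lies below all 6 controls in every TBX library, NHP2 in TBX2 and TBX5, RRS1 lies above them in TBX5 and MYC in TBX3.

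NCL, which binds precursor ribosomal RNA, was lower in TBX4. Its controls had 350.9, 423 and 493.7 CPM (lowest, median, highest), and TBX4 a, b and c had 326, 350.0 and 365. TBX4 a and b lay below the controls and TBX4 c overlapped them. NCL had a log2 fold change of -0.30 ± 0.07 (adjusted p = 0.0117), and -0.13, -0.01 and -0.07, none of them called, in TBX2, TBX3 and TBX5. NCL values were low wherever the most counted gene had a low share: 350.9 CPM in EV c at 12.4%, 317 in TBX3 c at 10.7% and 511 in TBX3 b at 47.4%. With that share as a covariate the TBX4 value was -0.07 and the call was lost, and a call appeared in TBX5 at -0.21. GNL3 (nucleostemin, a nucleolar GTPase) was lower in TBX2, at 60.5, 74.5 and 65.9 CPM against 70.9, 83.6 and 87.4. TBX2 b was within the control range and the others were below it. GNL3 had a log2 fold change of -0.27 ± 0.08 (adjusted p = 0.0128), and the call was lost without TBX2 a (-0.20) and against Ctl alone. MYBBP1A, which represses RNA polymerase I, was not called in any group.

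**Figure D5:**
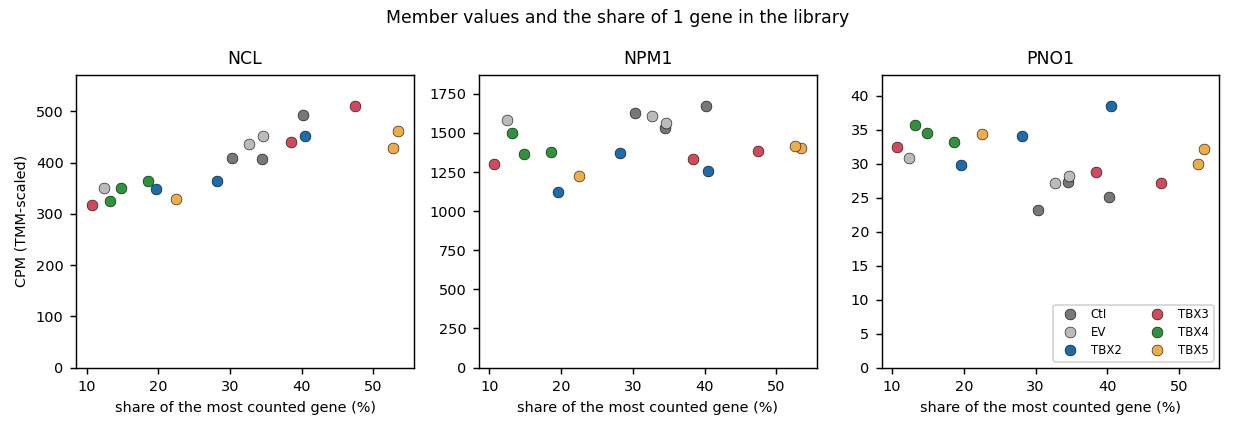
CPM of NCL, NPM1 and PNO1 (vertical axes, from 0) against the share of the most counted gene in each library (horizontal axes, percent), with colours for the 6 groups. NCL is low in the libraries with a low share, among them all 3 TBX4 libraries and EV c, and NPM1 is below the controls in every TBX library, though its TBX4 call was lost with the share as a covariate.

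Of the 5 genes of RNA polymerase I transcription, edgeR called 1 in TBX2 (higher), none in TBX3 or TBX4 and 1 in TBX5 (lower), where all tested genes had 15.6% lower and 17.0% higher, 6.4% and 8.47%, 6.07% and 6.97%, and 6.12% and 6.55%. Unadjusted p was under 0.05 for 1 of the 5 in TBX3 and 0 in TBX4, and DESeq2 called 0 in both. POLR1A, the catalytic subunit, had 87.7, 91.2 and 93.9 CPM in the controls (lowest, median, highest) and 84.3 to 100.7 in the TBX libraries. Its log2 fold changes of -0.06, 0.02, 0.05 and 0.07 in TBX2, TBX3, TBX4 and TBX5 had standard errors of 0.06, 0.05, 0.05 and 0.06. POLR1B, the other subunit of the active centre, had 0.01, -0.01, 0.05 and 0.04, and UBTF, which binds the ribosomal DNA promoter, -0.04, 0.12, -0.06 and -0.10. None of these 12 values was called.

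POLR1C, shared by polymerases I and III, had 22.4, 24.2 and 22.6 CPM in TBX2 and 16.2, 20.4 and 21.4 in the controls. The TBX2 libraries were above all controls, and the control Ctl a was far below the other 5. POLR1C had a log2 fold change of 0.23 ± 0.09 (adjusted p = 0.0631), and the call was lost without Ctl a (0.18), without TBX2 b (0.18), against EV alone and with DESeq2. Its exons share 18.3% of their bases with other genes. TCOF1 (treacle, which organises polymerase I on ribosomal DNA) had 107.7, 106.2 and 102.2 CPM in TBX5 and 117.3, 122.0 and 130.9 in the controls. All TBX5 libraries were below all controls, and so were those of TBX2 (113.6 to 116.8), where TCOF1 was not called. In TBX5 TCOF1 had a log2 fold change of -0.23 ± 0.06 (adjusted p = 0.0189), lost without TBX5 c (-0.20) and against Ctl alone.

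Box C/D complexes had 1 of 4 members lower in each TBX group and none higher, where 15.6%, 6.4%, 6.07% and 6.12% of all tested genes were lower. FBL (fibrillarin, the methyltransferase) had 91.1, 106.4 and 117.2 CPM in the controls (lowest, median, highest). It had 89.8, 70.1 and 86.8 CPM in TBX2, 91.6, 77.7 and 89.7 in TBX3 and 82.8, 93.0 and 95.2 in TBX4. The TBX2 libraries were all below the controls, and TBX3 and TBX4 overlapped them. Its values in TBX5 were 121.2, 81.2 and 88.6 CPM, with TBX5 a above every control. FBL had a log2 fold change of -0.35 ± 0.08 in TBX2 (adjusted p = 0.00234), -0.27 ± 0.07 in TBX3 (0.0139) and -0.22 ± 0.07 in TBX4 (0.0406), and -0.09 ± 0.09 in TBX5, not called. The TBX3 call was lost without TBX3 b (-0.21), and the TBX4 call without TBX4 a (-0.15) and against Ctl alone.

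NOP56, a core protein of the same complexes, chosen for mention after its values were seen, had 141.6, 151.8 and 144.6 CPM in TBX5 and 157.9 to 172.5 in the controls. The TBX5 libraries lay below all controls, as did TBX2 (147.6 to 157.7) and TBX3 (148.6 to 157.2), where NOP56 was not called. In TBX5 NOP56 had a log2 fold change of -0.18 ± 0.06 (adjusted p = 0.0495), lost without TBX5 a (-0.15) or TBX5 c (-0.17) and against Ctl alone. NOP58, its partner, and RRP9, which recognises the small nucleolar RNA of the small subunit processome, were called in no group.

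Box H/ACA complexes, which convert uridine to pseudouridine, had 2 of 5 members lower in TBX2, 1 in TBX3, 2 in TBX4 and 3 in TBX5, and none higher, where 15.6%, 6.4%, 6.07% and 6.12% of all tested genes were lower. The median log2 fold changes of the 5 were -0.09, -0.15, -0.16 and -0.17. NHP2, a core protein, had 25.1, 29.9 and 31.8 CPM in the controls (lowest, median, highest). It had 20.4, 23.9 and 18.7 CPM in TBX2 and 18.5, 24.4 and 22.3 in TBX5. Both groups were below all controls. NHP2 had a log2 fold change of -0.46 ± 0.09 in TBX2 (adjusted p = 0.000711) and -0.46 ± 0.10 in TBX5 (adjusted p = 0.005). Both calls were kept with each library left out in turn, by DESeq2, and against EV or Ctl alone. In TBX3 NHP2 had 23.1, 23.5 and 27.6 CPM and was not called. It was called lower there with DESeq2 size factors, totals that omit the most counted gene, no filter and a filter of 10 counts in each library. The replicate block, EV alone and the covariate also called it lower in TBX3. NHP2 shares 28.0% of its exon bases with RMND5B, and strand was not used in counting.

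DKC1 (dyskerin, the pseudouridine synthase) had 64.8, 69.2 and 65.7 CPM in TBX4, 69.0, 63.7 and 66.8 in TBX5 and 70.7 to 77.8 in the controls. The TBX4 and TBX5 libraries were all below the controls. DKC1 had a log2 fold change of -0.18 ± 0.06 in TBX4 (adjusted p = 0.043), lost without TBX4 a (-0.15) or TBX4 c (-0.17). In TBX5 it was -0.17 ± 0.06 (adjusted p = 0.0827), lost without Ctl b, Ctl c, EV b, EV c, TBX5 b or TBX5 c (-0.17 to -0.14), with DESeq2 and against EV alone. NOLC1, a chaperone of these complexes, had 112.0, 124.9 and 122.9 CPM in TBX4, 116.8, 108.1 and 118.2 in TBX5 and 125.4 to 141.5 in the controls. Both groups were below all controls. NOLC1 had a log2 fold change of -0.16 ± 0.06 in TBX4 (adjusted p = 0.082), lost without any 1 of Ctl c, EV a, EV b, TBX4 a, TBX4 b and TBX4 c (-0.19 to -0.11). In TBX5 it was -0.23 ± 0.06 (adjusted p = 0.0241), lost without TBX5 b (-0.19). Against Ctl alone, neither DKC1 nor NOLC1 was called.

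NOP10, a small core protein of the complex, was lower in TBX2 and TBX3. It had 49.0, 52.1 and 40.3 CPM in TBX2, 47.0, 41.6 and 51.4 in TBX3 and 50.7 to 57.9 in the controls. Each group had 1 library within the control range. NOP10 had a log2 fold change of -0.18 ± 0.08 in TBX2 (adjusted p = 0.0925) and -0.19 ± 0.07 in TBX3 (adjusted p = 0.0895). The first was lost without Ctl c, EV b, EV c, TBX2 a or TBX2 c (-0.20 to -0.08) and the second without Ctl c, EV b, EV c, TBX3 a or TBX3 b (-0.19 to -0.12). Neither was called by DESeq2 or against Ctl alone. GAR1, the remaining core protein, was called against the controls in no group.

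Of the 13 small subunit factors, 1 was lower and 3 higher in TBX2, 0 and 2 in TBX3, 1 and 3 in TBX4 and 0 and 1 in TBX5. All tested genes had 15.6% lower and 17.0% higher, 6.4% and 8.47%, 6.07% and 6.97%, and 6.12% and 6.55% in that order. The median log2 fold changes of the 13 were 0.09, 0.08, 0.10 and 0.06, beside 0.08 between EV and Ctl, where 11 of the 13 were positive. PNO1, an assembly factor that stays on the late precursor, had 23.2, 27.2 and 30.8 CPM in the controls (lowest, median, highest). It had 29.9, 34.1 and 38.5 CPM in TBX2, 35.7, 34.5 and 33.1 in TBX4 and 34.4, 32.1 and 30.0 in TBX5. TBX4 lay above all controls, while TBX2 and TBX5 each had 1 library among them. PNO1 had a log2 fold change of 0.33 ± 0.09 in TBX2 (adjusted p = 0.00928), 0.34 ± 0.07 in TBX4 (0.00376) and 0.26 ± 0.09 in TBX5 (0.0739). The TBX5 call was lost without Ctl b, Ctl c, EV a, TBX5 a or TBX5 b (0.20 to 0.26), with DESeq2 and against EV alone. EV controls were 0.20 above Ctl controls for PNO1, a difference not called.

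RRP12, needed for export of the precursor subunits, had 24.0, 25.9 and 27.0 CPM in the controls (lowest, median, highest). It had 33.1, 37.2 and 29.1 CPM in TBX2, 27.9, 27.2 and 27.8 in TBX3, 28.8, 31.8 and 29.0 in TBX4 and 28.3, 30.0 and 28.8 in TBX5. All 12 TBX libraries were above all 6 controls, TBX3 b by little. RRP12 had a log2 fold change of 0.37 ± 0.08 in TBX2 (adjusted p = 0.000989) and 0.21 ± 0.07 in TBX4 (adjusted p = 0.0517), and it was not called in TBX3 or TBX5. The TBX4 call was lost without Ctl b (0.19) or TBX4 b (0.16), against EV alone and with DESeq2.

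UTP4, of the processome subcomplex tied to transcription, had 47.9, 30.6 and 49.0 CPM in TBX2 and 24.0 to 36.1 in the controls, so TBX2 b lay among the controls and the others above them. UTP4 had a log2 fold change of 0.41 ± 0.12 (adjusted p = 0.0167), lost without TBX2 a (0.30) or TBX2 c (0.31) and with DESeq2. UTP20, a large scaffold of the processome, had 117.4, 113.4 and 119.3 CPM in TBX4, all above the 98.0 to 108.0 of the controls. UTP20 had a log2 fold change of 0.17 ± 0.05 (adjusted p = 0.0382), lost without TBX4 a (0.17) or TBX4 c (0.16) and against EV alone. BYSL, of the late precursor, had 22.5, 23.4 and 24.1 CPM in TBX3 and 15.2 to 22.3 in the controls, without overlap. BYSL had a log2 fold change of 0.27 ± 0.10 (adjusted p = 0.0717), lost without Ctl b, Ctl c or any TBX3 library (0.22 to 0.30), with DESeq2 and against EV alone.

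NOB1, the nuclease of the last step of small subunit RNA maturation, had 27.1, 24.9 and 21.8 CPM in TBX3 and 18.3 to 22.3 in the controls, with TBX3 c among them. NOB1 had a log2 fold change of 0.29 ± 0.09 (adjusted p = 0.0295), lost without TBX3 a (0.22) and against Ctl alone. The lower calls fell on NAT10, the RNA acetyltransferase, in TBX2 and on the processome protein NOP14 in TBX4, both chosen for mention after their values were seen. NAT10 had a log2 fold change of -0.15 ± 0.06 (adjusted p = 0.087), lost without Ctl c, any EV library or any TBX2 library (-0.17 to -0.13). NOP14 had -0.18 ± 0.07 (adjusted p = 0.0863), lost without Ctl b, Ctl c, EV a, EV b, TBX4 a or TBX4 c (-0.17 to -0.15). Neither was called by DESeq2 or against Ctl alone. HEATR1, WDR43, WDR75, LTV1 and TSR1 were called in no group. NOB1, NOP14, TSR1 and HEATR1 share 20.4%, 20.7%, 23.9% and 23.1% of their exon bases with other genes.

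The 10 large subunit factors had 1 lower in TBX2, 2 lower and 1 higher in TBX3, 1 lower in TBX4 and 2 lower and 1 higher in TBX5, beside the shares of all tested genes just given for the small subunit. RRP1B, a nucleolar protein of precursor processing, had 79.3, 82.2 and 87.9 CPM in the controls (lowest, median, highest). It had 69.0, 74.5 and 75.8 CPM in TBX4 and 71.1, 68.5 and 66.1 in TBX5. Both groups were below all controls, as was TBX2 (74.6 to 76.5), where RRP1B was not called. It was called lower in TBX2 with DESeq2 size factors, totals that omit the most counted gene, no filter and 1 fit. RRP1B had a log2 fold change of -0.18 ± 0.06 in TBX4 (adjusted p = 0.0415) and -0.27 ± 0.06 in TBX5 (adjusted p = 0.00698). The TBX4 call was lost without TBX4 a (-0.14) or TBX4 b (-0.19) and against Ctl alone. Its relative RRP1 had 20.6, 27.6 and 21.9 CPM in TBX2, 22.5, 23.4 and 22.3 in TBX5 and 25.1 to 29.3 in the controls. TBX5 was below all controls and TBX2 b was among them. RRP1 had a log2 fold change of -0.24 ± 0.09 in TBX2 (adjusted p = 0.0556), lost without TBX2 a (-0.14) or TBX2 c (-0.19), and -0.29 ± 0.08 in TBX5 (adjusted p = 0.0285), lost without TBX5 c (-0.28). Neither was called against Ctl alone.

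RRS1, which helps load the small ribosomal RNA onto the large subunit, had 17.997, 20.4 and 22.4 CPM in the controls (lowest, median, highest) and 24.1, 28.8 and 27.5 in TBX5. All TBX5 libraries were above all controls. RRS1 had a log2 fold change of 0.39 ± 0.09 (adjusted p = 0.00989), kept with each library left out in turn. In TBX3, WDR12 and BOP1, partners in the complex with PES1, were lower while BRIX1, an early assembly factor, was higher. WDR12 had 36.6, 35.0 and 37.3 CPM in TBX3 and 37.72 to 48.3 in the controls. The groups did not overlap. WDR12 had a log2 fold change of -0.24 ± 0.07 (adjusted p = 0.0341), lost without TBX3 b (-0.22) and against Ctl alone. BOP1 had 9.30, 9.81 and 8.79 CPM against 9.85 to 12.9, also without overlap. BOP1 had a log2 fold change of -0.32 ± 0.11 (adjusted p = 0.0626), lost without EV a (-0.29), TBX3 a (-0.33) or TBX3 c (-0.27), with DESeq2 and against Ctl alone.

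BRIX1 had 51.6, 56.9 and 56.2 CPM in TBX3 and 47.4 to 50.6 in the controls, so TBX3 lay above all controls. BRIX1 had a log2 fold change of 0.16 ± 0.06 (adjusted p = 0.0877), lost without any Ctl library, EV b, EV c, TBX3 b or TBX3 c (0.13 to 0.16), with DESeq2 and against EV or Ctl alone. PES1, the methyltransferase NOP2, NOP16 and the helicase DDX21 were called against the controls in no group.

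MYC had 95.4, 108.1 and 117.5 CPM in the controls (lowest, median, highest). Its values were 106.9, 107.6 and 99.2 CPM in TBX2, 120.7, 122.3 and 119.1 in TBX3, 100.8, 99.7 and 102.1 in TBX4 and 91.9, 96.6 and 99.4 in TBX5. The TBX3 libraries were above all 6 controls, and each other group overlapped them. MYC had a log2 fold change of 0.18 ± 0.06 in TBX3 (adjusted p = 0.0724), and -0.03, -0.09 and -0.16, not called, in TBX2, TBX4 and TBX5. In TBX5 it was called lower against EV alone, with totals that omit the most counted gene and in 1 fit. The TBX3 call was lost without Ctl a, Ctl b, EV c or any TBX3 library (0.15 to 0.18) and against EV alone.

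Pairs of TBX groups were then compared within a single model of the 18 libraries, without the controls in the contrast. Members called numbered 4 between TBX2 and TBX3, where 15.5% of all tested genes were called, and 2 between TBX2 and TBX4 (12.3%). They numbered 1 between TBX2 and TBX5 (12.1%), 3 between TBX3 and TBX4 (9.97%) and 3 between TBX3 and TBX5 (7.41%). Between TBX4 and TBX5 edgeR called none (0.539%), with 7 members at an unadjusted p under 0.05, and DESeq2 was not run for pairs. With library totals 36 members were called between TBX4 and TBX5, and 0 in every other pair. In that pair the median was 0.57 for all genes and 0.62 for the members. The share of all genes called there is not given, so the 36 are not a result about the members. Without TBX2 b the counts were 7 against TBX3 and 7 against TBX4, and without TBX2 a, TBX4 a, TBX4 b or TBX4 c TBX2 against TBX4 had 1. TBX2 against TBX5 had 2 without TBX2 c or TBX5 a and 0 without TBX5 c. TBX3 against TBX4 had 9 without TBX3 c and 1 without TBX3 a, TBX3 b or TBX4 c, and TBX3 against TBX5 had 1 without TBX3 b.

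MYC was higher in TBX3 than in TBX5 by 0.33 ± 0.07 (log2, adjusted p = 0.00214) and than in TBX4 by 0.26 ± 0.06 (adjusted p = 0.0119). It was lower in TBX2 than in TBX3, at -0.20 ± 0.06 (adjusted p = 0.0374), lost without TBX2 c (-0.17) or TBX3 b (-0.19). GNL3 was lower in TBX2 than in TBX3, at -0.36 ± 0.08 (adjusted p = 0.00427), and NHP2 lower in TBX2 than in TBX4, at -0.41 ± 0.11 (adjusted p = 0.015). WDR12 was higher in TBX2 than in TBX3, at 0.29 ± 0.08 (adjusted p = 0.0124), and lower in TBX3 than in TBX4, at -0.25 ± 0.08 (adjusted p = 0.0454). The second was lost without TBX3 a, TBX3 b, TBX4 b or TBX4 c (-0.25 to -0.23). RRP12 was higher in TBX2 than in TBX3, at 0.28 ± 0.08 (adjusted p = 0.0296), lost without TBX2 b (0.18).

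RRS1 was lower in TBX2 than in TBX5, at -0.33 ± 0.11 (adjusted p = 0.069), lost without TBX2 a, TBX2 b, TBX5 b or TBX5 c (-0.31 to -0.27). It was also lower in TBX3 than in TBX5, at -0.32 ± 0.11 (adjusted p = 0.096), lost without TBX3 b, TBX3 c, TBX5 b or TBX5 c (-0.33 to -0.22). NOB1 was higher in TBX3 than in TBX4, at 0.31 ± 0.11 (adjusted p = 0.0831), lost without any TBX4 library, TBX3 a or TBX3 b (0.23 to 0.35). GAR1 and NOP2 were chosen for mention after their values were seen. GAR1 was higher in TBX2 than in TBX4, at 0.46 ± 0.17 (adjusted p = 0.0929), lost without TBX2 a, TBX2 c or any TBX4 library (0.34 to 0.48). NOP2 was higher in TBX3 than in TBX5, at 0.23 ± 0.08 (adjusted p = 0.0766), lost without TBX3 b, TBX3 c, TBX5 a or TBX5 c (0.16 to 0.26).

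Between the control groups, EV against Ctl, edgeR called 0 of the 42 members, where 0.385% of all tested genes were called. Unadjusted p was under 0.05 for 9 members, DESeq2 called 0, and without Ctl c edgeR called 3. The log2 fold change was positive for 35 of the 42, where 50.4% of all tested genes were positive, and the member median was 0.09 against 0.00 for all genes. Library totals put the median of all genes at 0.20 and that of the members at 0.28. TSR1, a late small subunit factor, had 65.1, 64.1 and 78.3 CPM in Ctl a, b and c and 81.8, 85.4 and 80.9 in EV. All EV libraries were above all Ctl libraries. Its log2 fold change of 0.26 ± 0.07 (adjusted p = 0.19) had the smallest p of the members and was not called; TSR1 was chosen for mention after its values were seen.

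Other genes of the pathway came from 3 lists of proteins outside the 42 and from a list of small RNAs. Of 121 other ribosome biogenesis factors, 118 matched and were tested, and lower and higher calls numbered 18 and 28 in TBX2, 6 and 13 in TBX3, 5 and 9 in TBX4 and 9 and 6 in TBX5. Calls thus made up 39.0%, 16.1%, 11.9% and 12.7% of the 118, against 32.6%, 14.9%, 13.0% and 12.7% of all tested genes. DESeq2 called 14 and 25, 5 and 8, 4 and 6, and 5 and 0. Their median log2 fold changes were 0.02, -0.02, 0.00 and -0.04. TTF1, which stops and helps start transcription of ribosomal DNA, had 17.7, 19.4 and 20.1 CPM in the controls (lowest, median, highest) and 20.7 to 28.0 in the 12 TBX libraries, all of them above the controls. TTF1 had a log2 fold change of 0.50 ± 0.07 in TBX2, 0.41 ± 0.07 in TBX3, 0.29 ± 0.07 in TBX4 and 0.25 ± 0.08 in TBX5, called in each. The TBX4 call was lost without TBX4 a (0.23). In TBX5 it was lost without EV b (0.23), TBX5 a (0.19) or TBX5 b (0.24), with DESeq2 and against EV or Ctl alone.

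EBNA1BP2, of the large subunit pathway, had 149.2, 171.3 and 185.3 CPM in the controls (lowest, median, highest) and 104.8 to 153.7 in the TBX libraries. EBNA1BP2 had a log2 fold change of -0.56 ± 0.07 in TBX2, -0.22 ± 0.07 in TBX3, -0.30 ± 0.06 in TBX4 and -0.40 ± 0.08 in TBX5, called in each. All libraries but TBX3 a and TBX3 b were below the controls, and the TBX3 call was lost without TBX3 c (-0.15) and against Ctl alone. The AAA+ ATPase RUVBL2 was lower in TBX2 (-0.39 ± 0.07) and TBX3 (-0.29 ± 0.06), and the polymerase I initiation factor RRN3 was higher in both (0.37 ± 0.08 and 0.37 ± 0.08). The helicase DDX47 was higher in TBX2 by 0.96 ± 0.15 and in TBX4 by 0.45 ± 0.14, the second lost without TBX4 a (0.42) or TBX4 c (0.45), against Ctl alone, with DESeq2 and with the covariate.

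The other factors named by the same rule were these. In TBX2, WDR18 was lower (-0.61 ± 0.13) and TAF1D, of the polymerase I selectivity factor, higher (0.39 ± 0.07), as it was in TBX3 (0.18 ± 0.06), there lost without TBX3 b (0.18) or TBX3 c (0.15) and against EV alone. EIF6 was lower in TBX3 (-0.38 ± 0.08) and TBX2 (-0.35 ± 0.08). The RUVBL2 partner RUVBL1 was lower in TBX3 (-0.23 ± 0.06), TBX2 (-0.18 ± 0.06) and TBX5 (-0.22 ± 0.06), the last 2 lost without TBX2 a (-0.17) or TBX2 c (-0.13) and without TBX5 a (-0.17), and both against Ctl alone. ZNF622 was higher in TBX3 (0.39 ± 0.11), lost without TBX3 b (0.33) and against EV alone. In TBX4, ZNHIT6 (-0.27 ± 0.07), of box C/D assembly, and RPAP3 (-0.24 ± 0.06), a cochaperone, were lower, the second lost without TBX4 b (-0.19). LSG1, a GTPase of the late large subunit, was higher there (0.27 ± 0.06), and so was the processome protein WDR3 (0.22 ± 0.06), lost without TBX4 a (0.20) and against EV alone. These 4 and TTF1 in TBX4 were not called with the covariate. Of them, ZNHIT6 was also called in TBX5 (-0.24), RPAP3 in TBX2 (-0.16) and TBX5 (-0.26), and LSG1 in TBX2 (0.30) and TBX3 (0.19), and of these only LSG1 in TBX2 was kept with each library left out and against EV alone. In TBX5, MPHOSPH6 (-0.39 ± 0.10) was lower, lost without TBX5 a (-0.34), and so was PIH1D1 (-0.38 ± 0.11), lost without TBX5 a (-0.28) or TBX5 b (-0.35) and against Ctl alone. MPHOSPH6 was also lower in TBX4 (-0.27), lost without TBX4 a or TBX4 b, against EV alone, with DESeq2 and with the covariate, and PIH1D1 in TBX2 (-0.40), lost without TBX2 c (-0.23).

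Higher in TBX5 were NVL (0.31 ± 0.10), an ATPase of the large subunit pathway, lost without TBX5 b (0.31) or TBX5 c (0.24), and UTP15 (0.24 ± 0.08), of the processome, lost without any Ctl library, TBX5 b or TBX5 c (0.20 to 0.24). Neither was called there by DESeq2 or against EV alone, and NVL was called neither against Ctl alone nor with the covariate. NVL was also higher in TBX2 (0.47 ± 0.09), kept with each library left out, and UTP15 in TBX2 (0.26 ± 0.08) and TBX4 (0.25 ± 0.07), lost without TBX2 b (0.19) and without TBX4 a (0.19), both against EV alone and the second with the covariate.

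Of 12 genes of the MYC and MAX network, 10 were tested, and lower and higher calls numbered 3 and 1 in TBX2, 0 and 1 in TBX3, 1 and 1 in TBX4 and 0 and 1 in TBX5. Called were thus 4, 1, 2 and 1 of the 10, near the 32.6%, 14.9%, 13.0% and 12.7% of all tested genes, and DESeq2 called the same numbers. MXD1, a MAX partner that opposes MYC at E-boxes, had 9.41, 11.0 and 11.8 CPM in the controls (lowest, median, highest). It had 16.2, 16.8 and 18.02 CPM in TBX2, 16.6, 17.95 and 15.3 in TBX3, 15.5, 14.3 and 15.1 in TBX4 and 16.4, 13.9 and 17.3 in TBX5. All 12 TBX libraries were above all 6 controls. MXD1 had a log2 fold change of 0.65 ± 0.10, 0.60 ± 0.10, 0.46 ± 0.09 and 0.56 ± 0.11 in the same order, and the adjusted p was 3.12e-05, 0.000231, 0.00149 and 0.0021. Each call was kept with each library left out in turn. MXD3, another MAX partner, was lower in TBX2 at -0.92 ± 0.15, with MXD4 at -0.30 ± 0.11, lost without TBX2 a (-0.23) and against EV alone. MGA, which carries both a T-box and a MAX-binding domain, was lower in TBX2 at -0.14 ± 0.06, lost without Ctl a, Ctl c, TBX2 a or TBX2 c (-0.14 to -0.12) and against EV or Ctl alone. In TBX4, the MAX partner MNT was lower at -0.47 ± 0.11, lost with the covariate (-0.28).

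Of 19 genes of RNA polymerase III transcription, which makes the small ribosomal RNA and transfer RNAs, all were tested. Lower and higher calls numbered 4 and 3 in TBX2, 2 and 3 in TBX3, 1 and 0 in TBX4 and 3 and 0 in TBX5, which is 36.8%, 26.3%, 5.26% and 15.8% of the 19 where all tested genes had 32.6%, 14.9%, 13.0% and 12.7%. DESeq2 called 3 and 3, 1 and 3, 1 and 0, and 3 and 0. GTF3A, which binds the gene of the small ribosomal RNA, had 35.6, 37.3 and 38.4 CPM in the controls (lowest, median, highest). It had 30.7, 28.5 and 29.4 CPM in TBX3, 33.8, 33.0 and 29.1 in TBX4 and 31.6, 24.6 and 34.6 in TBX5. All 9 were below all controls. GTF3A had a log2 fold change of -0.33 ± 0.07 in TBX3 (adjusted p = 0.00169), -0.22 ± 0.06 in TBX4 (0.0325) and -0.29 ± 0.08 in TBX5 (0.0345), and 0.11 in TBX2, not called. The TBX4 call was lost without TBX4 c (-0.15), against EV alone and with the covariate (-0.24), and the TBX5 call without TBX5 b (-0.17) and against EV alone.

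Other polymerase III genes were called in 1 to 3 groups. POLR3G, a subunit known from stem and tumour cells, was lower in TBX2 (-0.20 ± 0.07), TBX3 (-0.22 ± 0.08) and TBX5 (-0.30 ± 0.08). These calls were lost without TBX2 a (-0.15), without Ctl c, EV b or TBX3 c (-0.21 to -0.11), and without TBX5 a (-0.21), all 3 against EV alone, and that in TBX3 with DESeq2. POLR3C, another subunit, was higher in TBX2 (0.45 ± 0.07) and TBX3 (0.31 ± 0.07). In TBX2 the initiation factor BRF1 was lower (-0.31 ± 0.09), and so was the repressor MAF1 (-0.23 ± 0.08), lost without Ctl c (-0.19), TBX2 a (-0.23) or TBX2 c (-0.11) and against EV or Ctl alone. POLR3F was higher there (0.45 ± 0.11), lost without TBX2 b (0.28), and POLR3D (0.23 ± 0.08), lost without TBX2 b (0.20) or TBX2 c (0.22) and against EV alone. In TBX3 GTF3C4 (0.41 ± 0.06) and BDP1 (0.26 ± 0.07), both of the initiation machinery, were higher, the second lost without TBX3 b (0.19) and against Ctl alone. In TBX5 POLR3E was lower (-0.33 ± 0.10), lost without TBX5 a (-0.28) or TBX5 b (-0.32) and against Ctl alone.

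Small nucleolar RNAs and the related Cajal body RNAs, a list chosen after seeing the data, had 838 genes in the count table. Of these, 71 passed the filter, 62 and 9, and only 24 had at least 10 counts in every library. A low share of calls among them thus does not show that they were unchanged. Lower and higher calls numbered 1 and 11 in TBX2, 0 and 1 in TBX3, 0 and 7 in TBX4 and 0 and 0 in TBX5, or 16.9%, 1.41%, 9.86% and 0% against 32.6%, 14.9%, 13.0% and 12.7% of all tested genes. Cajal body RNAs were 3 of the 11, 2 of the 7 and the 1 in TBX3. The 11 were 2 with library totals, 4 against EV alone, 5 with DESeq2 and 5 to 16 with each library left out, and the 7 were 18 with library totals, 2 against EV alone, 5 with DESeq2, 1 with the covariate and 3 to 12 with each library left out. With the covariate TBX3 had 4 lower and 3 higher and TBX5 0 and 4. With each library left out TBX3 had 0 to 4 lower and 0 to 2 higher, and TBX5 0 to 1 and 0 to 2. EV against Ctl had 0 lower and 1 higher, a Cajal body RNA. Among the 24 with at least 10 counts in every library, lower and higher calls numbered 1 and 10 in TBX2 and 1 and 1 in TBX3. They numbered 0 and 5 in TBX4 and 0 and 0 in TBX5.

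Between EV and Ctl, edgeR called 0 genes of each of the 3 lists of proteins, with an unadjusted p under 0.05 for 24, 0 and 0 in the order given, and DESeq2 called 0, 0 and 0.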

How the data were processed

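Total RNA from 18 NCI-H1299 libraries was sequenced, and the authors deposited raw counts per Ensembl gene, made with bcl2fastq 1.8.4, STAR 2.3.0 on GRCh37 and featureCounts at its defaults, without strand. A gene was tested where 10 or more of the 18 libraries had over 5 counts of it, with edgeR 4.0.16 (quasi-likelihood test, TMM, R 4.3.3) over all genes, at an FDR of 0.1 (Benjamini-Hochberg). Each TBX group was compared with the 6 EV and Ctl libraries, EV with Ctl, and pairs of TBX groups within a single model of every library. Standard errors (SE) are the absolute log2 fold change divided by the square root of the F statistic.

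Alternatives were DESeq2 1.42.0, DESeq2 size factors, library totals with and without the most counted gene, no filter, a filter that asks each library for 10 counts, a replicate block, EV or Ctl alone, 1 fit, an FDR of 0.05 and each library left out. The covariate (log2 share of the most counted gene) and a level per kilobase of all exon bases were added after seeing the data. The pipeline was tested on simulated data. Totals of 7365221 to 11743179 counts set the precision.

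Members and lists were chosen with earlier results of these data known. Lists held 121 other biogenesis factors (118 matched), 12 MYC and MAX genes, 19 polymerase III genes, and markers of epithelial and lung cells (9), leukocytes (5), endothelium (3, 2 matched) and fibroblasts (4). Named with values were NPM1, NCL, FBL, MYC, POLR1A, POLR1B and UBTF always, members called the same way in all 4 TBX groups or in opposite directions in 2, and the 5 members of smallest p in each direction and TBX group. Also named were the member of smallest p in each TBX pair, up to 5 members called in EV against Ctl, up to 3 genes of each other list per direction and group, and the members of highest and lowest control level per length. Promoters came from RefSeq (GRCh38.p14) by symbol. The TBX4 library whose title ends in TBX5 was grouped by its number and letter, and the labels do not name the treatment of Ctl. The counts of 2 marker genes are not reported here.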

Additional observations from a re-analysis of the deposited data

Results flagged for a closer look

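Values of the 26 named members were looked over for a control library far from the other 5, and 1 was found: POLR1C was 16.2 CPM in Ctl a. Chance alone sets about 1 in 20 such groups apart. Between TBX groups, 4 members differed for TBX2 against TBX3, 2 for TBX2 against TBX4, 1 for TBX2 against TBX5, 3 for TBX3 against TBX4 and 3 for TBX3 against TBX5, by the test of the difference itself. The member of smallest p was GNL3 at a log2 difference of -0.36 for TBX2 against TBX3, NHP2 at -0.41 for TBX2 against TBX4 and RRS1 at -0.33 for TBX2 against TBX5. It was MYC at 0.26 for TBX3 against TBX4 and at 0.33 for TBX3 against TBX5.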

How the results depend on the processing

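DESeq2 size factors and a filter of at least 10 counts in every library kept all 53 calls of members, 40 against the controls and 13 between TBX groups. Of the 40, DESeq2 kept 28, EV alone 31, Ctl alone 21, 1 edgeR fit 33 and the covariate 29. Of the 53, the replicate block kept 45, no filter 40, totals without the most counted gene 42, an FDR of 0.05 33 and library totals 3, with 41 lost and 9 reversed. Where a result moved, the cause was not tested. EV or Ctl alone and each library left out use fewer libraries, and an FDR of 0.05 is a stricter threshold.

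With library totals, lower and higher members numbered 0 and 0 in TBX2, 0 and 0 in TBX3, 0 and 8 in TBX4 and 0 and 0 in TBX5, with medians of -0.10 in TBX3, 0.22 in TBX4 and -0.38 in TBX5. All genes had 33 lower and 2756 higher in TBX4 there. Pairs then had 0 for TBX2 against TBX3, 0 for TBX2 against TBX4, 0 for TBX2 against TBX5, 0 for TBX3 against TBX4, 0 for TBX3 against TBX5 and 36 for TBX4 against TBX5. In that last pair the median was 0.57 for all genes and 0.62 for the members. Library totals reversed NPM1 (0.083), FBL (0.044), RRP1B (0.079), DKC1 (0.080), NOLC1 (0.10), NOP14 (0.083), RPAP3 (0.0245) and GTF3A (0.044) in TBX4. They reversed PNO1 (-0.050), TTF1 (-0.048), NVL (-0.0075) and UTP15 (-0.080) in TBX5, and MYC (-0.082) and NOB1 (-0.037) in TBX3 against TBX4. In those comparisons library totals put the median of all genes at 0.25, -0.31 and -0.34, and each gene kept its side of that median. Which scaling gives the true sign was not tested.

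Totals without the most counted gene gave 12 lower, 1 higher and a median of -0.068 in TBX3 (all genes 1709, 867 and -0.055), 1 higher and -0.067 in TBX4 and 1 higher in TBX5. With no filter, TBX2 had a median of -0.085, TBX3 2 higher and -0.033, TBX4 4 lower, TBX5 1 higher, TBX2 against TBX5 2 members and TBX4 against TBX5 1. All genes then had 1045 higher in TBX3, 828 lower in TBX4 and 881 higher in TBX5. At least 10 counts in every library gave 2 for TBX2 against TBX5. Against EV alone, TBX2 had a median of -0.087, TBX3 8 lower, 1 higher and -0.047, and TBX4 1 higher and -0.079. The TBX5 median against EV alone was -0.124. Against Ctl alone, TBX2 had 3 lower and a median of 0.033, TBX3 2 lower and 0.047, TBX4 2 lower and 0.011, and TBX5 3 lower and -0.038. DESeq2 gave 2 higher in TBX2, 3 lower and 2 higher in TBX3 and 1 higher in TBX5. All genes had 2067 higher in TBX2, 801 lower and 949 higher in TBX3 and 707 higher in TBX5 with it. In 1 edgeR fit 3 members were lower in TBX3 and 2 in TBX4, beside 939 and 753 of all genes. The covariate, chosen after seeing the data, gave 0 lower and 0 higher in TBX4. At an FDR of 0.05, 4 were lower in TBX2, 3 lower and 1 higher in TBX3, 4 lower in TBX4 and 1 higher in TBX5, with 1 for TBX2 against TBX4, 0 for TBX2 against TBX5 and 1 for TBX3 against TBX5.

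With each library left out in turn, TBX2 had 3 to 8 lower, 3 to 5 higher and a median of -0.059 to -0.011, and TBX3 2 to 8 lower, 1 to 5 higher and -0.037 to 0.015. TBX4 had 2 to 7 lower, 2 to 3 higher and -0.055 to -0.0092, and TBX5 4 to 9 lower, 1 to 3 higher and -0.090 to -0.038. EV against Ctl had 0 to 3 members, TBX2 against TBX3 3 to 7, TBX2 against TBX4 1 to 7, TBX2 against TBX5 0 to 2, TBX3 against TBX4 1 to 9, TBX3 against TBX5 1 to 3 and TBX4 against TBX5 0 to 0. Calls over all genes in these smaller fits are not given, so these ranges are not a result about the members.

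With the replicate block, 4 members were lower in TBX4 where 7 were without it, and of all genes 749 with it and 945 without it. Whether libraries of 1 letter belong together is not stated in the labels. Deviations from the group mean correlated between libraries of the same letter at a mean r of 0.00043 over 45 pairs (-0.10 to 0.16) and of different letters at -0.00019 over 90 pairs, a correlation across genes, which are not independent replicates. Such deviations cancel out within a group, so the different-letter mean largely follows from the same-letter mean and is no separate check.

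Counts of 44 and more per member and library, 3 libraries a group and 1 cell line limit what can be seen.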
